A study of Gallus gallus with 10 samples.

Results

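Glycolysis splits glucose into pyruvate in the cytosol, and lactate dehydrogenase and the pyruvate dehydrogenase complex decide between them whether that pyruvate becomes lactate or enters mitochondria. Glucose comes into the cell through facilitative transporters, and lactate leaves or enters with a proton through monocarboxylate transporters. The retina is a textbook tissue for glycolysis that makes lactate even where oxygen is present. The set described here was 33 genes of this pathway, taken by symbol: the glycolytic enzymes, the bifunctional enzymes that control phosphofructokinase, lactate dehydrogenase, pyruvate dehydrogenase and its kinases, mitochondrial phosphoenolpyruvate carboxykinase, and the transporters of glucose and monocarboxylates. Of these, 28 were found among 12464 genes, and 5 (SLC2A3, ALDOA, PFKFB1, PFKFB4 and PDK2) were not analysed here.

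The values came from retinas of 5 wild-type Dekalb white chicken embryos at Hamburger and Hamilton stage 23, which is about embryonic day 4 and the time of the optic cup. In each embryo the lens of 1 eye was pulled out with forceps through a cut in the dorsal wall of the eye, and 6 h later the retina of that eye (lens removed) and the retina of the untouched eye on the other side (control) were taken singly. The 10 libraries of polyadenylated RNA thus form 5 pairs. The operated eye had both lost its lens and been opened, and the design gives no sham operation, so these cannot be told apart. In bulk tissue fewer cells of a type and less RNA per cell cannot be told apart either.

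Levels are normalised read counts, given as mean ± SD over 5 embryos with control first. They are not scaled to gene length, so levels are compared between eyes. Ratios, sums and rankings across genes below are of these counts and do not give relative transcript numbers. A log2 change is the within-embryo estimate on the log2(value + 1) scale from limma, a linear model fitted over all genes with the embryo as a block. P-values are two-sided and adjusted over the 9076 genes whose mean reached 10, and a gene is said to have risen or fallen where the adjusted p is below 0.05. The step between low values put the libraries at 18670700 to 26005000 effective reads, so that a value of 10 rests on 187 to 260.1 reads.

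The labelled tissue is the optic cup, and all 8 retinal progenitor markers looked for, among them RAX and SIX6, were present in every library. Summed marker levels of tissues around the neural retina, and of neurons and ganglion cells within it, were not all alike in both eyes. Calls among the markers are to be read against 10.6% of all tested genes called higher and 12.3% called lower. The summed level of 11 pigment epithelium markers was 345 to 796 in control and 313 to 402 in operated libraries. TRPM1 had the highest mean among them (280.9 and 209.2). The sum was lower in 5 of 5 operated retinas, and 2 of 5 tested markers, TRPM1 among them, fell. In embryo 1 the sums were 345 and 319, and TRPM1 alone had 245 and 212, so the lower sum there rested on TRPM1. That of 11 periocular mesenchyme markers was 67.4 to 246 and 72.8 to 102, and 2 of 4 tested fell. That of 5 haemoglobin genes was 30.03 to 378 and 111 to 319, higher in 4 of 5 operated retinas. Of these 5 genes 0 passed by limma, and 4 had an unadjusted p below 0.05. That of 8 endothelial markers was 58.9 to 113 and 60.1 to 91.2, and 0 of 3 tested passed by limma, with 0 at an unadjusted p below 0.05. That of 12 neuron and ganglion cell markers was 1749 to 1959 and 2024 to 2436, higher in 5 of 5, mostly from DCX (means of 1383 and 1678), and 2 of 8 tested rose. That of 7 lens markers was 88.4 to 136 and 110.1 to 170.2, higher in 5 of 5 operated retinas. This sum came mostly from CRYBA4 (means of 86.7 and 109.1). CRYBA4 was the only lens marker tested, and it rose (log2 change 0.32, adjusted p = 0.012 by limma). The remaining 11 of 18 lens markers were not analysed here. Found were 11 of 15 pigment epithelium markers, 11 of 16 mesenchyme markers and 5 of 15 red cell markers (the haemoglobin genes). For endothelium this was 8 of 10, and for neurons and ganglion cells 12 of 15. Markers not found were not analysed here either. None of the markers found was at 0 in any library, but all 12464 genes stood above 1 in at least 5 libraries. The absence of zeros therefore says little about the tissue. The part of these shifts in the changes below was not tested.

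Of 26 tested members, 9 rose (SLC2A1, HK1, HK2, PFKFB3, ENO2, PKM, LDHA, SLC16A3 and SLC16A6), 1 fell (LDHB) and 16 did not pass. Over all 9076 tested genes 10.6% were called higher and 12.3% lower. The median log2 change was 0.19 over the members and -0.0013 over all tested genes, and 21 of 26 members had a change above 0, against 49.8% of all genes. Among the 22 members whose mean reached 50, 7 rose and 1 fell in the same fit, where 8.7% and 16.9% of the 4622 genes at that level were called higher and lower. The 5 operated values lay above all 5 control values for 7 members and below them for 1, against 6.41% and 7.27% of all tested genes. Of the other 2 members, PFKM and PDK4, the mean lay under 10 and they were not tested. Together the 28 members took 1.32% to 1.42% of the column total in control libraries and 1.65% to 1.72% in operated ones, so the groups did not overlap. This share is weighted towards genes with high counts. Among them were GAPDH (means of 3560 and 3944) and ENO1 (2962 and 3359), which did not pass, and PKM (1158 and 1606). It therefore does not show a shift of all 28 members.

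**Figure D1:**
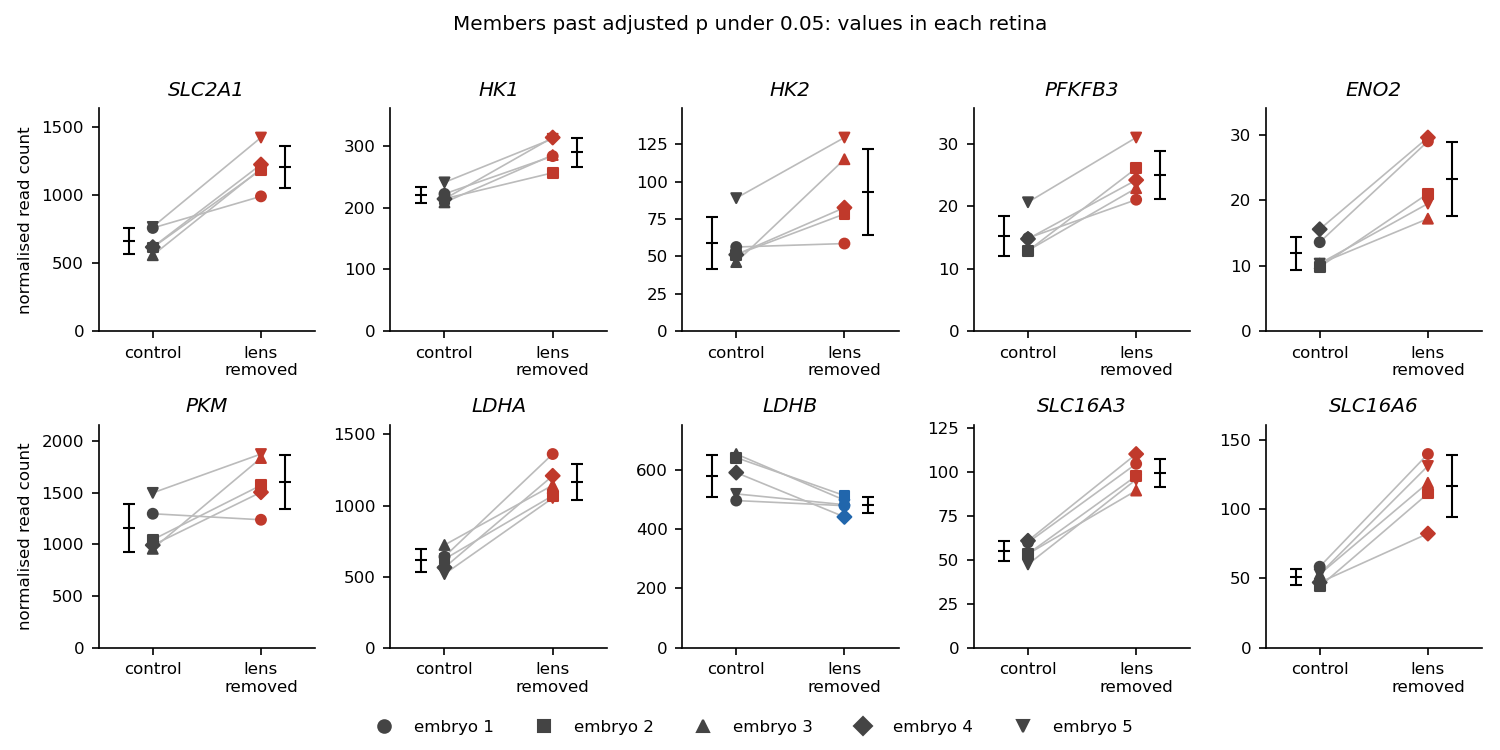
Normalised read counts of the 10 members past the threshold in each retina (vertical axes, from 0), with a line joining the eyes of an embryo, a marker shape per embryo, and the mean with its SD (n = 5) beside each group. SLC16A6, SLC16A3, LDHA, ENO2, SLC2A1, PFKFB3 and HK1 are higher in every operated retina than in any control, whereas HK2, PKM and LDHB overlap between the groups.

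The glucose transporter gene of the set rose. SLC2A1 encodes GLUT1, the main glucose transporter of neural tissue and of blood-retina barriers. In embryos 1 to 5 the control retinas had 759, 615, 558, 618 and 767, and the operated retinas 992, 1188, 1196, 1227 and 1426. Every operated value was above every control value, with embryo 1 showing the smallest step. The mean went from 664 ± 94.1 to 1206 ± 154, a 1.82-fold rise (log2 change 0.86, SE 0.10, adjusted p = 0.00070).

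Both hexokinases, which trap glucose in the cell by phosphorylating it, rose. HK1, the constitutive form of neural tissue, had 222, 214, 208, 214 and 241 in the control and 284, 256, 285, 314 and 312 in the operated retinas of embryos 1 to 5. The groups did not overlap (220.0 ± 12.7 and 290.1 ± 23.5, log2 change 0.40, SE 0.06, adjusted p = 0.0028). HK2, the inducible form, had 56.3, 51.1, 46.2, 51.1 and 89.02 in control and 58.6, 78.4, 115, 82.6 and 129.6 in operated retinas. It was higher in 5 of 5 operated eyes, but the control of embryo 5 exceeded the operated retinas of embryos 1, 2 and 4. The mean went from 58.7 ± 17.3 to 92.9 ± 28.9 (log2 change 0.64, SE 0.14, adjusted p = 0.015). HK2 missed the threshold without embryo 2 (adjusted p = 0.052), without embryo 4 (0.070) and with no replicate block (0.071).

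The 5 tested genes of the steps from glucose 6-phosphate to triose phosphates did not pass by limma, and 1 of them, ALDOC, had an unadjusted p below 0.05 (0.016). GPI, the isomerase that follows hexokinase, was at 505 ± 51.5 and 528 ± 47.1 (log2 change 0.06, 95% interval -0.08 to 0.21). Phosphofructokinase makes the committing step, and its liver-type and platelet-type genes were tested. PFKL was at 63.5 ± 15.5 and 76.2 ± 15.9 (adjusted p = 0.21), with within-embryo log2 changes from -0.39 in embryo 1 to 0.77 in embryo 3. Without embryo 1 its log2 change was 0.43 and it passed (adjusted p = 0.017). PFKP was at 154 ± 25.8 and 177 ± 23.7 (adjusted p = 0.18), of which most came from embryo 5, at 118 and 202. The muscle-type gene PFKM lay at 3.62 to 4.75 in control and 3.93 to 8.502 in operated libraries. With no filter on low values its log2 change was 0.47 (SE 0.13, adjusted p = 0.026), and it was higher in 4 of 5 embryos.

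The aldolase and the isomerase that complete this upper stage had changes of opposite sign, neither past the threshold. ALDOC, the aldolase of nervous tissue, was at 567 ± 77.2 and 697 ± 93.3 (log2 change 0.29, adjusted p = 0.062). It had 579, 530.0, 514, 517 and 697 in control and 565, 731, 816, 654 and 717 in operated retinas, so embryo 1 showed no increase. Without embryo 1 it passed (log2 change 0.38, adjusted p = 0.018), and also after quantile normalisation (adjusted p = 0.043). TPI1, which interconverts the triose phosphates, was at 657 ± 64.7 and 613 ± 76.4, lower in 4 of 5 operated retinas (log2 change -0.10, adjusted p = 0.24).

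One of the enzymes that set the level of fructose 2,6-bisphosphate, the main activator of phosphofructokinase, rose. PFKFB3, the form with the strongest bias towards making this activator, had 14.9, 12.8, 12.9, 14.8 and 20.6 in control and 21.04, 26.1, 22.9, 24.2 and 31.01 in operated retinas. The lowest operated value stood just above the highest control value, that of embryo 5. The mean went from 15.2 ± 3.19 to 25.04 ± 3.81 (log2 change 0.69, SE 0.09, adjusted p = 0.0015). PFKFB2, best known as the heart form, was at 13.2 ± 1.25 and 13.99 ± 1.93, higher in 3 of 5 embryos (adjusted p = 0.62).

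Among the enzymes from glyceraldehyde 3-phosphate to pyruvate, ENO2 and PKM rose and 4 did not pass. GAPDH, often used as a reference gene, was at 3560.0 ± 334 and 3944 ± 338 and higher in 5 of 5 operated retinas, by 0.07 to 0.26 on the log2 scale (log2 change 0.15, adjusted p = 0.098). ENO1, the ubiquitous enolase, was also higher in 5 of 5 (2962 ± 302 and 3359 ± 246, log2 change 0.18, adjusted p = 0.064). After quantile normalisation both passed, GAPDH at adjusted p = 0.042 and ENO1 at 0.013. PGAM1, the mutase between them in the pathway, was at 467 ± 68.1 and 531 ± 58.2 (adjusted p = 0.12, and 0.027 without embryo 1). PGK1, which makes the first ATP of the pathway, was at 779.5 ± 59.7 and 835 ± 56.7 (log2 change 0.10, 95% interval -0.04 to 0.24).

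ENO2, the neuronal enolase, had 13.6, 9.81, 10.3, 15.6 and 10.3 in control and 29.03, 21.02, 17.2, 29.6 and 19.5 in operated retinas. All operated values were above all control values, and embryos 1 and 4 were the highest on both sides. The mean went from 11.9 ± 2.54 to 23.3 ± 5.69 (log2 change 0.90, SE 0.08, adjusted p = 0.00029). PKM, the pyruvate kinase that ends glycolysis, had 1297, 1045, 957, 992 and 1499 in control and 1239, 1573, 1837, 1506 and 1876 in operated retinas. It was lower in the operated eye of embryo 1 and higher in the other 4, and the groups overlapped. The mean went from 1158 ± 233 to 1606 ± 261 (log2 change 0.48, SE 0.12, adjusted p = 0.024). PKM did not pass without embryo 2 (adjusted p = 0.088) or without embryo 4 (0.11). Splice forms of PKM are not separated in a count per gene.

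**Figure D2:**
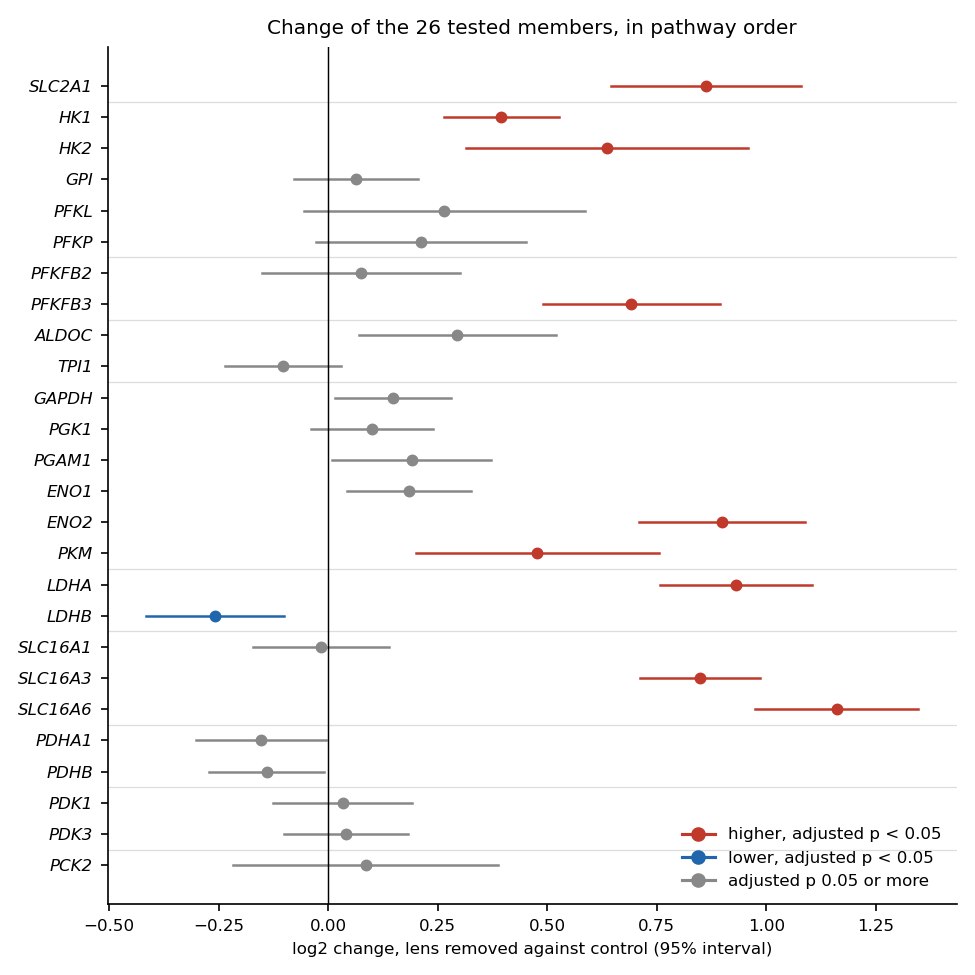
Log2 change (horizontal axis) of each of the 26 tested members, lens removed against control, with its 95% interval, ordered along the pathway with lines between stages. SLC2A1, ENO2, LDHA, SLC16A3 and SLC16A6 lie at 0.85 or above, LDHB lies below 0, and the genes that did not pass lie between -0.15 and 0.29.

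The lactate dehydrogenase genes moved in opposite directions. LDHA encodes the subunit that favours making lactate from pyruvate. In embryos 1 to 5 it had 639.9, 623, 722, 563 and 517 in control and 1362, 1069, 1143, 1209 and 1053 in operated retinas. The lowest operated value stood well above the highest control value (613 ± 77.99 and 1167 ± 126, 1.91-fold, log2 change 0.93, SE 0.08, adjusted p = 0.00018). LDHB encodes the subunit that favours the reverse reaction and is typical of oxidative tissue. It had 495, 640.3, 652, 589.7 and 518 in control and 478, 512, 497, 440.4 and 481 in operated retinas. It was lower in 5 of 5 operated eyes, although the groups overlapped because the control value of embryo 1 lay below the operated values of embryos 2 and 3. The mean went from 579 ± 70.6 to 482 ± 26.9 (log2 change -0.26, SE 0.07, adjusted p = 0.029). This call did not hold without embryo 2 (adjusted p = 0.11), embryo 3 (0.076) or embryo 4 (0.13), nor with no replicate block (0.055).

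A ratio of 2 genes within a library does not depend on how libraries were scaled. The LDHA to LDHB ratio of normalised counts went from 1.06 ± 0.14 to 2.43 ± 0.34 (n = 5). Its log2 change was 1.14, 1.10, 1.06, 1.52 and 1.13 in embryos 1 to 5 (mean 1.19, SD 0.19). The enolase ratio ENO2 to ENO1 changed by 0.77 (SD 0.12) and the transporter ratio SLC16A3 to SLC16A1 by 0.88 (SD 0.18) on the log2 scale, both up in 5 of 5 embryos. The ratio HK2 to HK1 changed by 0.25 with an SD of 0.42, up in 4 of 5 embryos, and by 0.09 without embryo 3 and 0.38 without embryo 1. The ratios of PFKP to PFKL and to PFKM changed by -0.05 (SD 0.62) and -0.35 (SD 0.49), each up in 2 of 5. Without embryo 3 these were 0.13 and -0.23. An exact two-sided sign-flip permutation test over 5 embryos cannot give a p below 0.0625. The lactate dehydrogenase, enolase and transporter ratios reached that p (0.125 adjusted over the 6 ratios), and the other 3 had exact p = 0.25, 0.25 and 0.8125.

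**Figure D3:**
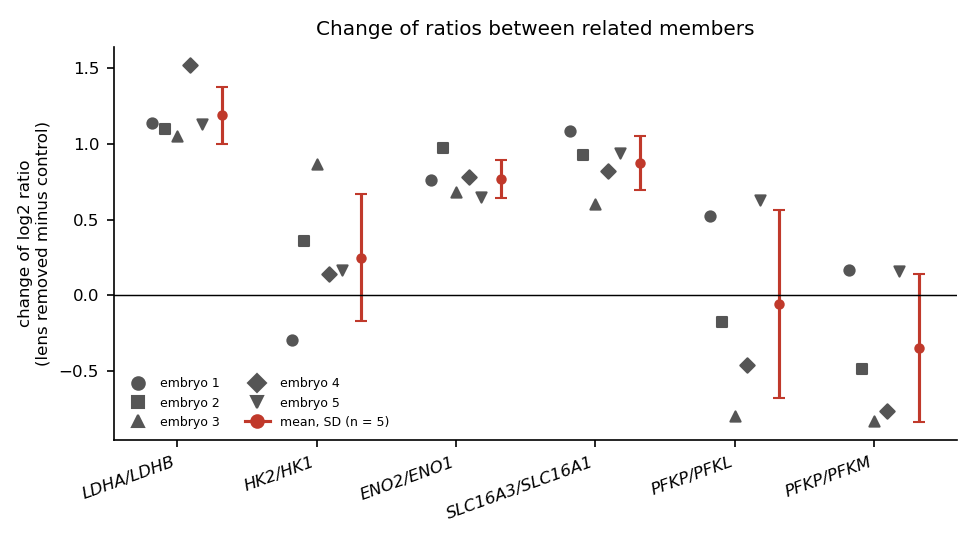
Change of the log2 ratio between related members (vertical axis, lens removed minus control within an embryo), 1 marker per embryo, with the mean and SD (n = 5) in red. The changes of LDHA/LDHB, ENO2/ENO1 and SLC16A3/SLC16A1 lie above 0 in every embryo, while those of the phosphofructokinase pairs fall on both sides of 0.

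Of the monocarboxylate transporters, SLC16A3 and SLC16A6 rose and SLC16A1 did not pass. SLC16A3 encodes MCT4, a low-affinity carrier known for lactate export from glycolytic cells. It had 59.7, 53.3, 53.2, 60.7 and 47.2 in control and 104, 97.5, 89.2, 110.0 and 95.5 in operated retinas. Both groups were narrow and far apart (54.8 ± 5.49 and 99.3 ± 8.06, log2 change 0.85, SE 0.06, adjusted p = 0.00011). SLC16A6 encodes MCT7, a less studied relative that in zebrafish exports ketone bodies from the liver. It had 58.4, 44.1, 52.9, 47.01 and 53.1 in control and 139.8, 111, 119, 82.3 and 131 in operated retinas. The operated retina of embryo 4 was the lowest of its group and still above every control. With a 2.23-fold rise from 51.1 ± 5.62 to 117 ± 22.1 (log2 change 1.16, SE 0.08, adjusted p = 0.00011) it had the largest log2 change of the 26 tested members. SLC16A1 encodes MCT1, a widely expressed carrier of lactate and pyruvate, and was at 362 ± 23.3 and 359 ± 36.9 (log2 change -0.02, 95% interval -0.17 to 0.14). BSG, the chaperone (basigin) that brings MCT1 and MCT4 to the plasma membrane, was at 609 ± 36.1 and 632 ± 55.9 (adjusted p = 0.47).

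The 4 tested genes of pyruvate dehydrogenase and its kinases did not pass by limma, and PDHA1 and PDHB had unadjusted p-values below 0.05 (0.043 and 0.039). PDHA1, the catalytic alpha subunit of pyruvate dehydrogenase, was at 119 ± 6.91 and 107 ± 6.597, lower in 4 of 5 operated retinas (log2 change -0.15, adjusted p = 0.12, and 0.033 without embryo 1). PDHB, its beta subunit, had 77.7, 82.4, 80.9, 78.2 and 73.5 in control and 68.8, 71.97, 69.5, 72.8 and 72.5 in operated retinas. The groups did not overlap, yet the difference was small and did not pass (log2 change -0.14, 95% interval -0.27 to -0.01, adjusted p = 0.11). PDK1, a kinase that shuts the complex off and a well-known target of the hypoxia-inducible factor HIF-1 in mammals, was at 91.6 ± 8.34 and 93.5 ± 3.86 (log2 change 0.03, 95% interval -0.13 to 0.19). PDK3, a second such kinase, was at 58.3 ± 2.29 and 60.1 ± 4.88 (adjusted p = 0.67). PDK4, known in mammals for induction by fasting, lay at 2.65 to 3.78 in control and 3.696 to 7.57 in operated libraries. It was higher in 5 of 5 embryos and, with no filter on low values, had a log2 change of 0.53 (SE 0.13, adjusted p = 0.019). PCK2, which makes phosphoenolpyruvate in mitochondria, was at 14.8 ± 4.61 and 15.6 ± 3.75 (adjusted p = 0.67).

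The members did not vary alike between embryos. The median within-embryo log2 change of the 26 was 0.10, 0.23, 0.38, 0.11 and 0.20 in embryos 1 to 5, where the median of all tested genes lay between -0.03 and 0.01. A group of 8 members (SLC2A1, HK2, PFKL, PFKFB2, ALDOC, PGAM1, PKM and SLC16A1) changed least or fell furthest in embryo 1 and were at their highest change in embryo 3, as did 17.3% of all tested genes. The opposite order, highest in embryo 1 and lowest in embryo 3, was found for 5 members (GPI, PGK1, ENO1, ENO2 and PDHA1) and 13.9% of all genes. In the control retinas alone 10 members, among them SLC2A1, HK1, HK2, ALDOC and PKM, were highest in embryo 5, as were 33.3% of all tested genes. Another 9, among them GAPDH, ENO1, PGK1 and LDHA, were highest in embryo 3, as were 30.7% of all tested genes. Both member counts out of 26 lie near these shares. Changes and control levels share the control libraries, so these orders are not independent. The control of embryo 5 also had the highest pigment (796), mesenchyme (246) and haemoglobin (378) sums, and the controls of embryos 1 and 5 had the highest sums of the 8 retinal progenitor markers (1708 and 1692, against 1330 to 1409 in the other controls). The part of these markers in the order of the members was not tested. Without embryo 5 the counts were again 9 members higher and 1 lower. They were 12 and 2 without embryo 1, 9 and 0 without embryo 3, and 7 and 0 without embryo 2 or 4.

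**Figure D4:**
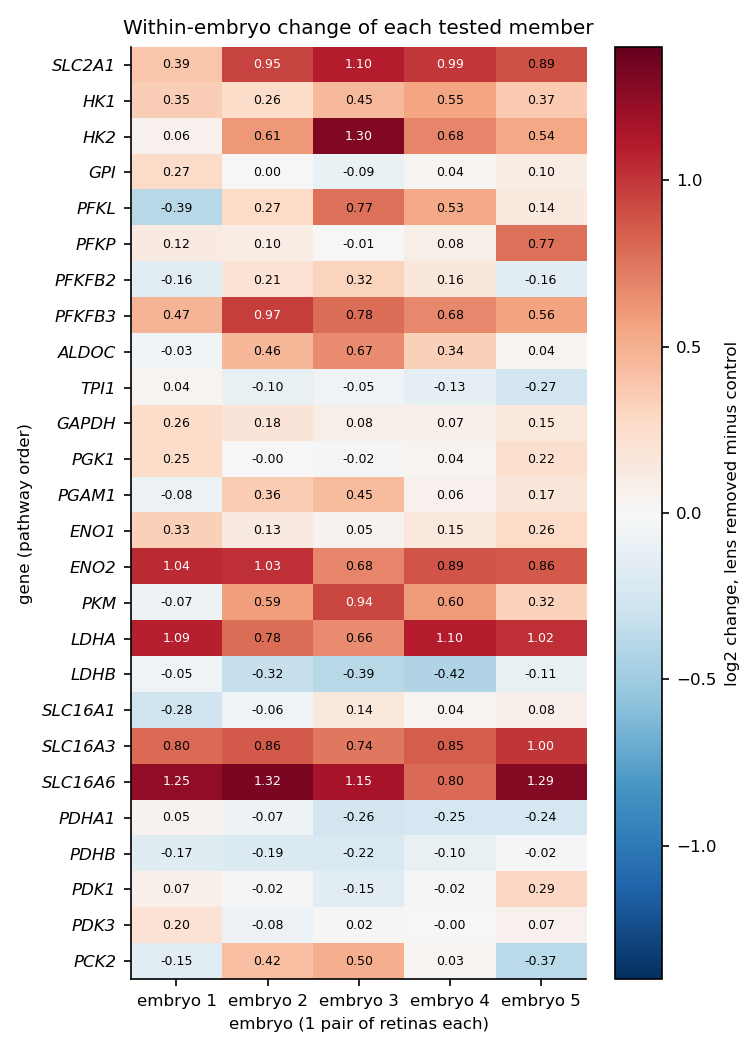
Within-embryo log2 change (colour and printed value, lens removed minus control) of the 26 tested members, in pathway order from top to bottom, in embryos 1 to 5. ENO2, LDHA, SLC16A3 and SLC16A6 are high in all 5 columns, while HK2, PFKL, ALDOC and PKM are near or below 0 in embryo 1 and highest in embryo 3.

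Other genes of sugar handling were counted from lists that do not overlap with the members, to be read against the 10.6% of all tested genes called higher and 12.3% called lower. Of 13 further genes of glycolysis and gluconeogenesis tested, 0 rose and 2 fell by limma (median log2 change -0.02). HKDC1, a hexokinase-like enzyme, fell from 50.3 ± 12.6 to 24.97 ± 2.73 (log2 change -0.95, adjusted p = 0.0012), lower in 5 of 5 operated retinas and so opposite to HK1 and HK2. PGAM5, which shares a fold with the mutases but is a protein phosphatase of mitochondria, fell by 0.18 on the log2 scale (adjusted p = 0.040), a call lost when any 1 embryo was left out. Of 14 further sugar and monocarboxylate transporters, 4 rose and 0 fell (median 0.10), and 2 rose without embryo 2, 3, 4 or 5. Among them were SLC37A2, SLC37A4 and SLC37A1, which belong to the sugar-phosphate exchangers of the endoplasmic reticulum. SLC37A4, the glucose 6-phosphate transporter, went from 54.1 ± 3.81 to 69.7 ± 6.44 (log2 change 0.36). SLC37A2 was at 5.52 ± 1.51 and 17.2 ± 4.86, so it reached the mean of 10 needed for testing only through the operated retinas, and its place among the 4 supports nothing.

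In the lists of mitochondrial, pentose phosphate and glycogen genes few genes passed, and each of those calls was lost when certain single embryos were left out. None of 8 genes of pyruvate import, the remaining pyruvate dehydrogenase subunits and its phosphatases passed by limma (0 rose and 0 fell, median log2 change -0.12). DLD, the subunit of highest mean, was at 159.5 ± 15.4 and 145 ± 4.34 (adjusted p = 0.18), and 1 of the 8, MPC1, had an unadjusted p below 0.05 (0.038), a gene named after its value was seen. Of 17 citric acid cycle genes, 0 rose and 3 fell (median -0.08). All 17 had a mean of at least 50, and 16.9% of the 4622 tested genes at that level were called lower. IDH3A, of the NAD-dependent isocitrate dehydrogenase, went down from 151 ± 18.1 to 119 ± 3.98 (log2 change -0.33, adjusted p = 0.022). MDH2, the mitochondrial malate dehydrogenase, went from 312 ± 32.3 to 265 ± 20.8 (adjusted p = 0.024) and SUCLG2, of succinyl-CoA synthetase, from 146 ± 15.7 to 123 ± 8.900 (adjusted p = 0.0497). These 3 calls were lost without embryo 2, 3 or 4, and 7 citric acid cycle genes were lower without embryo 1. MDH2 and SUCLG2, but not IDH3A, also missed the threshold without embryo 5, after quantile normalisation and with no replicate block. Of 10 pentose phosphate genes, 0 rose and 1 fell (median -0.09), namely PGD, which makes NADPH, from 184 ± 25.1 to 154 ± 15.1 (adjusted p = 0.033). Of 10 glycogen genes, 1 rose and 0 fell (median 0.16), namely GYG1, the primer of glycogen synthesis, from 41.6 ± 6.22 to 51.00 ± 4.33 (adjusted p = 0.036). PGD did not pass without embryo 2, 3, 4 or 5, and GYG1 did not pass without embryo 1, 2, 4 or 5. Neither passed after quantile normalisation or with no replicate block. The citric acid cycle share lies near that of genes at its level, and the pentose phosphate and glycogen shares lie near those of all genes.

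Of 21 tested genes of the low oxygen response, 9 rose and 0 fell (median log2 change 0.15), where 10.6% of all tested genes were called higher and 12.3% lower. Without embryo 4 the count was 5 higher. Without embryo 1 or 3, and with no filter on low values, 1 gene of the list was called lower. The count of 1 lower also came after quantile normalisation and after rescaling by trimmed means or by median ratios. NDRG1 went from 47.7 ± 14.4 to 116 ± 23.2 (log2 change 1.30), DDIT4, an inhibitor of mTOR signalling, from 11.3 ± 1.13 to 36.5 ± 11.8 (log2 change 1.56), and STC2, a secreted glycoprotein, from 40.2 ± 2.54 to 69.01 ± 18.9 (log2 change 0.73). The lowest change of the list was that of EPAS1, a gene named after its value was seen, which encodes the HIF-2 alpha subunit. It was at 21.5 ± 10.4 and 12.3 ± 1.896, with every operated value below every control value, and did not pass (log2 change -0.67, adjusted p = 0.054). Among 15 regulators of glucose use, 2 rose and 1 fell (median 0.04), and 0 rose without embryo 2 or 4. PRKAG2, a regulatory subunit of AMP-activated kinase, went from 147 ± 18.5 to 179 ± 17.1 (adjusted p = 0.011). MLX, the partner of the glucose-sensing factors MondoA and ChREBP, fell from 104 ± 6.95 to 81.98 ± 5.27 (adjusted p = 0.0094), and did not pass without embryo 4.

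**Figure D5:**
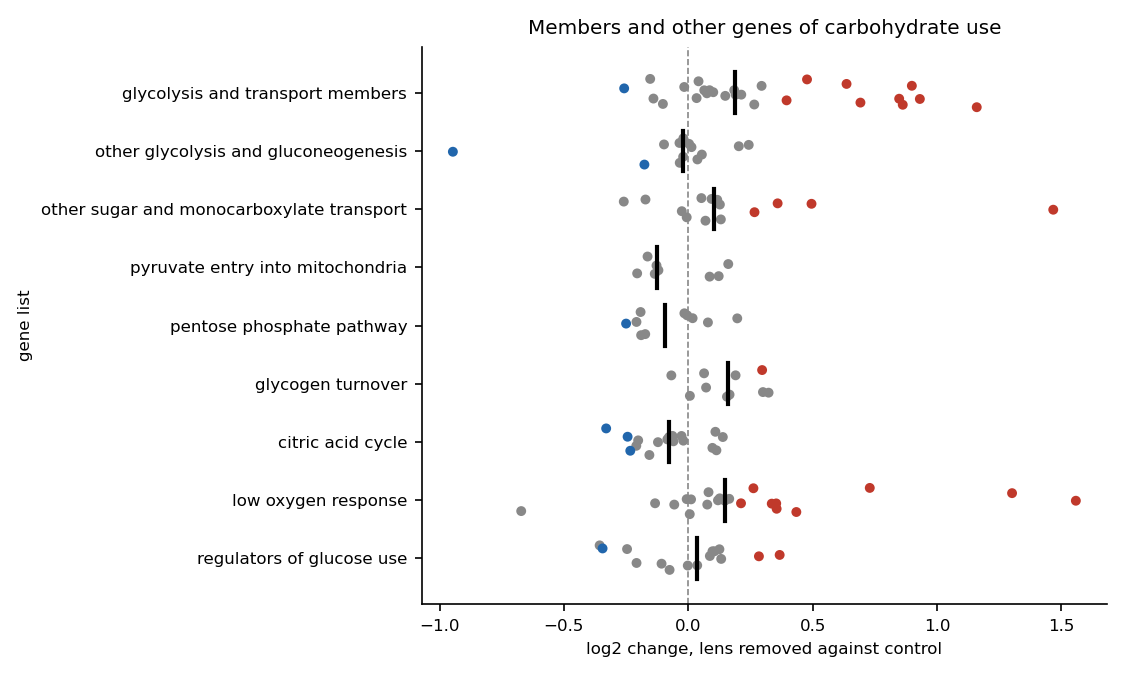
Log2 change (horizontal axis) of each tested gene in the set and in 8 other lists, with red for higher and blue for lower at an adjusted p under 0.05, a black bar at each list's median and a dashed line at the median of all tested genes. The members have 9 red and 1 blue point and a median of 0.19. The lists for other glycolysis and gluconeogenesis, pyruvate entry, pentose phosphates and the citric acid cycle have medians below 0.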

How the data were processed

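The authors deposited a scaled signal, normalised read counts per gene with column totals of 979286 to 1033240. Without saying what each did, the submitters' processing notes list HISAT2 2.1.0, Subread 1.6.2, featureCounts, SAMtools 1.9, Trim Galore 0.6.4 and FastQC 0.11.8, and the build GRCg6a. The scaling method, annotation and use of strand are not given in the sources used here. Per the labels all 10 libraries belong to batch 128. In each library 89.5% to 91.2% of values worth at most 400 reads lay on whole multiples of 1 read (tolerance 0.01), too few to recover counts, so no count model was used.

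Values were log2-transformed with a pseudocount of 1, which understates changes of low genes. Genes with a mean of at least 10 (9076 of 12464, 72.8%) entered limma 3.58.1 (R 4.3.3) with an intensity trend and the embryo as a block, after a check on simulated data. Adjustment was by Benjamini and Hochberg at 0.05. The pairing follows from the titles; deviations from group means correlated at 0.31, 0.76, 0.45, 0.68 and 0.59 between the eyes of embryos 1 to 5, and both libraries of embryo 1 correlated better with the opposite eye of embryo 4 (0.34 and 0.48). Figures were drawn with matplotlib 3.10.9 (pandas 2.3.3 and numpy 2.4.6, Python 3.11.15).

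The members and lists were chosen with earlier results of these data known, so their counts are descriptions. All members are reported. Of the other lists, the text names up to 3 passing genes by smallest p, or with none passing the 1 with the highest mean. BSG, MPC1, EPAS1 and the markers CRYBA4, DCX and TRPM1 were added after their values were seen. Alternatives were other pseudocounts, filters, scalings, a robust variance prior, no replicate block and leaving out each embryo. ALDOC/ALDOA and SLC2A3/SLC2A1 ratios were not computed. No sequences or coordinates were used. Some genes counted within the lists are not reported here by name.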

Additional observations from a re-analysis of the deposited data

Results flagged for a closer look

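In groups of 5 a sample was marked where its gap to the nearest other exceeded 0.71 of the group's range. Of 84 groups (28 members, each with its control levels, operated levels and within-embryo changes), 6 were marked, or 7.14%, and chance marks about 1 in 20.

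Embryo 5 stood apart in 3 of them. The control of embryo 5 had the highest HK2 level (89.02, against 46.2 to 56.3 in the other controls) and the highest PFKFB3 level (20.6, against 12.8 to 14.9). The PFKP change of embryo 5 was 0.77 on the log2 scale, against -0.01 to 0.12 in the others. Embryo 1 stood apart for the SLC2A1 change (0.39, against 0.89 to 1.10) and for the operated PDK3 level (68.6, against 56.6 to 60.1). The PDK4 change of embryo 4 was 1.07, against 0.28 to 0.50, at levels under 10.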

How the results depend on the processing

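The 14 alternatives gave 7 to 12 members higher and 0 to 2 lower. SLC2A1, HK1, LDHA, SLC16A3 and SLC16A6 passed under all 14, and PFKFB3 and ENO2 under the 13 that tested them. With no replicate block 8 members were higher and 0 lower, and 3 other pathway genes were lower against 7 with the block. Leaving out 1 embryo gave 7 to 12 members higher, 0 to 2 lower, 7 to 18 other pathway genes higher (16 with all), 1 to 15 lower, and 387 to 1378 genes higher and 301 to 1468 lower overall; the lowest counts came without embryo 4 and the highest without embryo 1, except that 0 members were lower without embryo 2, 3 or 4 and 7 higher without embryo 2 or 4. With a mean of at least 50, 10 other pathway genes and 412 genes overall were higher. Rescaling by trimmed means or by median ratios gave 13 other pathway genes lower each. Small changes of uncalled members turned sign: PFKFB2 (-0.027), SLC16A1 (0.046) and PCK2 (-0.012) after quantile normalisation. When 1 embryo was left out SLC16A1 ranged from -0.056 to 0.0499 (without embryo 1), PCK2 from -0.019 (without embryo 3) to 0.1999 and PDK1 from -0.030 (without embryo 5) to 0.078. The PFKP to PFKL ratio ranged from -0.23 to 0.13 when 1 embryo was left out, at 0.13 without embryo 3 and 0.047 without embryo 4. The cause of these shifts was not tested. The scalings moved the median of all genes by at most 0.02 on the log2 scale. A pseudocount of 5 lowered the change of the ENO2 to ENO1 ratio to 0.55 and of PFKP to PFKM to -0.08. PFKM and PDK4 rest on levels under 10.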
